A study of Arabidopsis thaliana with 6 samples.

Results

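The 200 probe sets described here gave the highest signal in shoots of wild-type Arabidopsis, among 22746 probe sets tested on the array. Array controls, probe sets assigned to plastid or mitochondrial genes, and those of 12 listed photosynthesis and photorespiration genes were left out. The remaining 22633 were ranked by the mean of the wild-type arrays, and the first 200 were taken. The wild-type values therefore chose the members, and they also enter every difference from wild type given below. Without the exclusions, 16 organellar probe sets and 10 of the listed genes would have stood among the first 200.

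The study compared msh1 albino plants with wild-type plants, with 3 arrays of each. The nuclear gene MSH1 encodes a relative of bacterial MutS that acts in plastids and mitochondria, where it keeps the organelle genomes stable. The aerial parts of plants 4 weeks old were used. The culture medium of all of them was MS with 1.5% sucrose, the chamber gave 12 h of light and 12 h of dark at 24 °C, and RNA came from single plants. The labels do not name the msh1 allele or the background line. All mutant plants were albino, so genotype and albino state cannot be told apart.

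The most abundant messengers of a green shoot come from a small number of functions. Most chloroplast proteins are encoded in the nucleus, made in the cytosol and imported, and their messengers are plentiful in leaves. Growing tissue also holds large amounts of messenger for the proteins of the cytosolic ribosome and for enzymes of central metabolism. In plants, signals from the plastid to the nucleus are known to adjust many nuclear genes for chloroplast proteins.

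The annotation named a single gene for 51 of the 200 members and several genes for 9. The other 140 were unnamed, and their nuclear origin rests on the exclusions alone. All 60 annotated members lay on the nuclear chromosomes, which the exclusions made certain, so this says nothing about the unnamed ones. The first 18 ranks held no member with a single gene, so the members highest on the array are described by their values only. Of the 200, 22 had identifiers that mark sequence shared with other transcripts. A value depends on the probes as well as on the amount of messenger, so the rank is an order of array signal and levels are not compared between genes.

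The ranking ended without a gap. AT1G49500, at rank 198, averaged 11.95 on the log2 scale in wild type, and the members at ranks 199 and 200 averaged 11.94 each. Just outside, AT3G11630, a 2-Cys peroxiredoxin of the chloroplast, averaged 11.94 at rank 201, and ranks 202 and 203 averaged 11.93 each.

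Arrays of the same group correlated at 0.989 to 0.995 over all tested probe sets; between the groups the range was 0.969 to 0.985. Most of the fixed cell type markers had no single-gene probe set in the annotation. None was found for mesophyll, epidermis, phloem, flower or seed. Such markers could stand among the unnamed probe sets, so their levels are not known here. The guard cell gene FMA averaged 7.06 in both groups. The root gene PYK10, a beta-glucosidase of endoplasmic reticulum bodies, stood at 9.65, 9.71 and 8.38 in msh1 albino and at 8.58, 7.10 and 7.90 in wild type. Its difference was 1.39 ± 0.44 (SE) and was not called by limma (adjusted p = 0.0911). The root hair genes EXPA7 and EXPA18 averaged 4.18 and 4.13 in msh1 albino, against 4.19 and 3.95 in wild type. The part of other cells in the results was not tested.

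Abundant transcripts were lower in msh1 albino far more often than they were higher. By limma with Benjamini-Hochberg adjustment over all probe sets and a threshold of 0.05, 60 of the 200 members fell and 1 rose. That is 30% lower, where 7.44% of all tested probe sets were called lower. It is 0.5% higher, where 3.75% of all tested probe sets were called higher. The median log2 difference of the members was -0.26, and that of all tested probe sets was -0.04. In 84 members (42%) every albino array lay below every wild-type array, against 19.8% of all tested probe sets. In 3 members (1.5%) every albino array lay above, against 10.1%.

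Most of these differences were small. The middle of the distribution ran from -0.53 to -0.08 between the quartiles, and 173 of the 200 differences were negative. Of the members, 8 were at least 2-fold lower and 0 were at least 2-fold higher. Differences ran from -1.52 to 0.72. Whole shoots were extracted, so fewer cells of a type and less RNA per cell cannot be told apart.

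**Figure D1:**
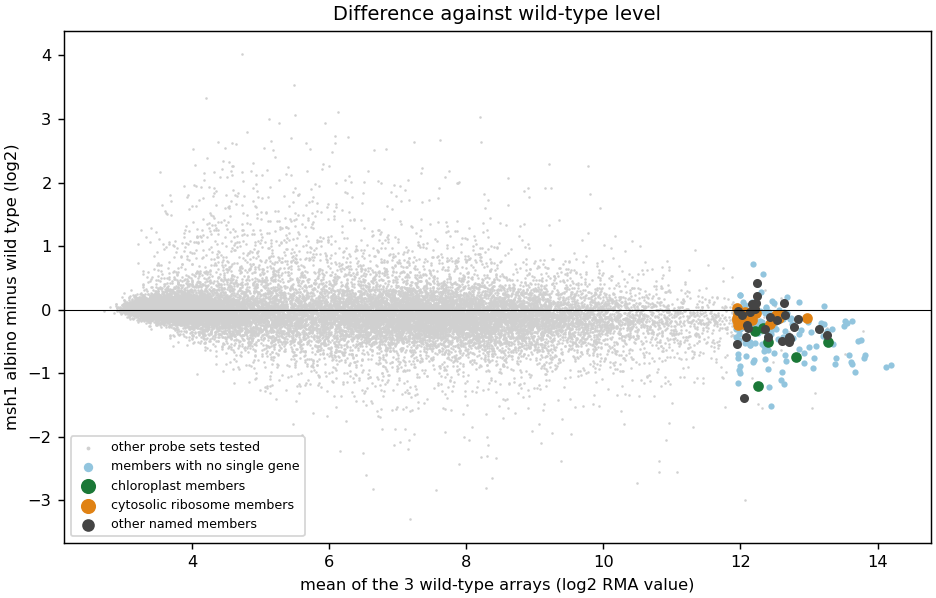
Log2 difference, msh1 albino minus wild type (vertical axis), against the wild-type mean on the log2 scale (horizontal axis), with 1 point for each tested probe set and the members marked. Of the members, 173 lie below 0, and their differences run from -1.52 to 0.72.

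The share of lower calls depended on how the arrays were set on a common scale. Aligning the arrays on 5 measured reference genes gave 43 lower and 2 higher members, beside 3.36% and 7.86% of all tested probe sets. Of these reference genes, 4 of 5 had negative differences in the deposited values, with a median of -0.24, and 1 was called lower. That alignment moved the median of all tested probe sets to 0.13, and the median of the members was -0.10. Cyclic loess, which levels the arrays along the intensity range, gave 36 lower and 6 higher, beside 4.6% and 5.54%. Quantile normalization of the deposited values gave 26 lower and 12 higher, beside 5.7% and 5.21%. All 26 were among the 60 members that fell in the deposited values. The median of the members was then -0.017, and that of all tested probe sets was -0.012. Leaving out wild-type replicate 2 left 34 members lower, and the share of all tested probe sets was not computed for that fit.

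The choice of members also moved the count. Ranking by the albino mean in place of the wild-type mean gave 32 lower and 3 higher members, with a median of -0.16. Over all tested probe sets, 7.44% were called lower and 3.75% higher. When members were ranked on 1 wild-type array and compared with the other wild-type arrays, 34 to 44 fell and 0 rose. These fits used fewer arrays, and their share over all tested probe sets was not computed.

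The upper end of the whole signal distribution differed between the arrays. The 99th percentile of all probe sets stood at 11.67, 11.88 and 11.45 in msh1 albino, and at 11.92, 11.88 and 11.92 in wild type. Albino replicates 1 and 3 were low, and albino replicate 2 equalled the lowest wild-type array to 2 decimals. The median of the members followed the same order, at 12.15, 12.35 and 11.96 in msh1 albino and 12.41, 12.35 and 12.38 in wild type. The members' share of the summed linear signal was 16.6%, 17.7% and 15.8% in msh1 albino, against 19.2%, 18.98% and 18.7% in wild type. These shares did not overlap, and they differed by -2.25 percentage points. The difference of the shares was -1.56 points after cyclic loess and -0.46 points after quantile normalization. The part of this shift between arrays in the calls of single members was not tested beyond those settings.

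Members also varied more among the albino arrays. Their median SD was 0.219 in msh1 albino and 0.101 in wild type, whereas over all tested probe sets it was 0.135 and 0.126. Albino replicate 3 was the lowest albino array for 167 of the 200 members, and albino replicate 2 was the highest for 159. Over all 22746 tested probe sets these counts were 8887 and 9377. A member's distance from wild type thus depended on which albino array was read. The SD of the members' median over the albino arrays was 0.195 as deposited, 0.033 after cyclic loess and 0.003 after quantile normalization. Over the wild-type arrays it was 0.031, 0.010 and 0.002. RNA came from single plants, so spread between plants and shift between arrays cannot be told apart.

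**Figure D2:**
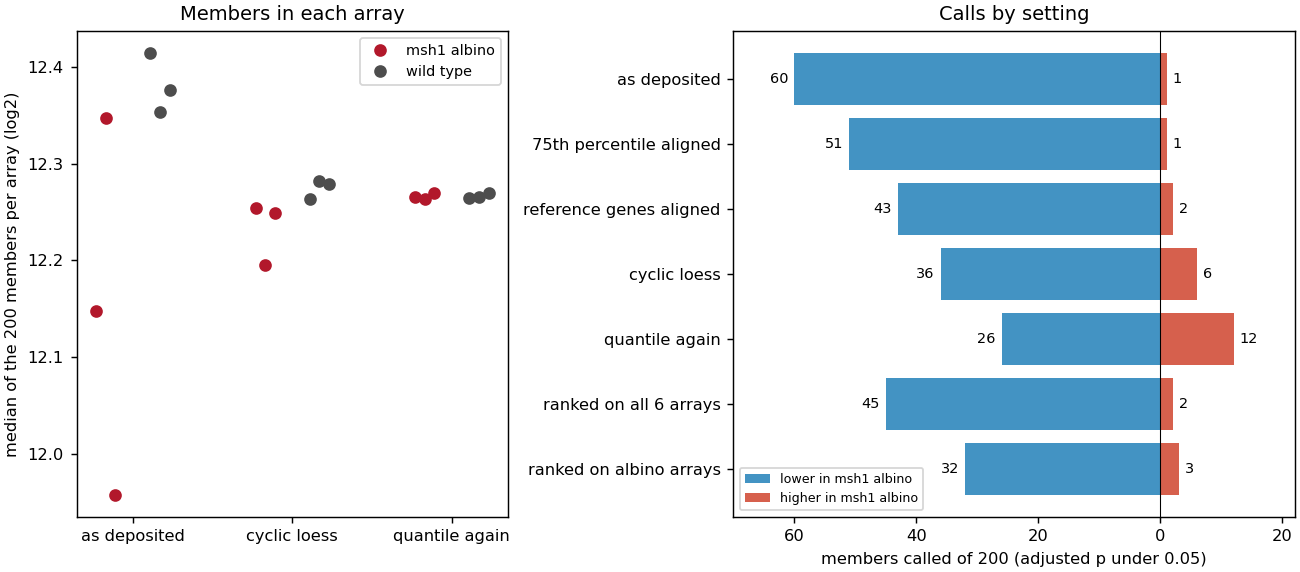
Level of the members in each array and number of members called under each setting, with msh1 albino placed before wild type. The members' median stood at 12.15, 12.35 and 11.96 in msh1 albino and 12.41, 12.35 and 12.38 in wild type, and lower calls ranged between 26 and 60 in the settings drawn.

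The share of lower calls was highest in the first 50 ranks of the ranking. Among ranks 1 to 50, 20 members fell (40%), and the median difference was -0.41. Among ranks 51 to 100, 16 fell (32%) with a median of -0.27. In the next 50 ranks 11 fell (22%), and in the last 50 ranks 13 fell (26%), with medians of -0.19 and -0.17. Outside the members, the share was 18.5% at ranks 201 to 400, 19.8% at ranks 401 to 1000 and 16.9% at ranks 1001 to 2000, and it was 6.19% below rank 2000. These blocks were cut from the same wild-type values and carry no test.

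**Figure D3:**
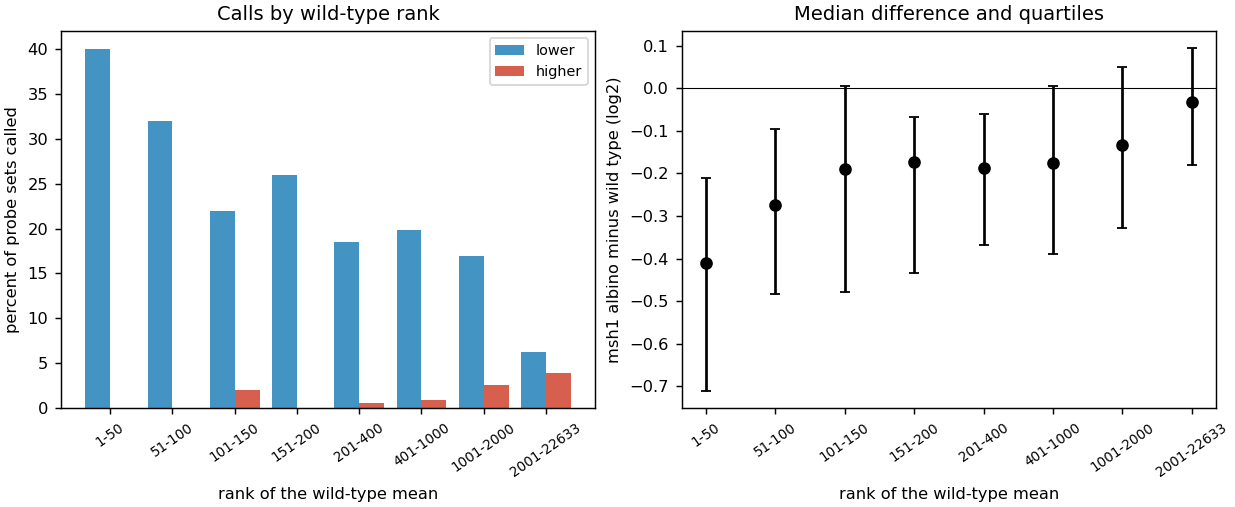
Percent of probe sets called lower or higher in msh1 albino and median log2 difference with bars between the quartiles, by block of wild-type rank. The percent called lower was 40% in ranks 1 to 50 and 6.19% below rank 2000.

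Most members also ranked high in msh1 albino. Of the 200 members, 168 (84%) were also among the first 200 by the albino mean, and 192 were among the first 400. Of the first 20 members in each ranking, 13 were shared. Of the 32 that left the first 200, 28 had been called lower, beside 30% of all members and 7.44% of all tested probe sets. Members were chosen high in wild type, so leaving that range mostly means falling, and the count carries no test. The 4 of these 32 with a gene name were AT1G67865, AT1G51400, AT1G49500 and PRXR1, at albino ranks 626, 436, 297 and 210.

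Named members were grouped by their roles after their values had been seen. Of 6 members grouped as transcripts for chloroplast proteins, 3 fell, beside 7.44% of all tested probe sets called lower. In all 6, every albino array lay below every wild-type array, beside 19.8% of all tested probe sets, and the median difference was -0.51. After cyclic loess and after quantile normalization 1 was called, with medians of -0.31 and -0.21. AT3G58610, a chloroplast enzyme placed below with primary metabolism, is not among the 6; it differed by -0.08 and its groups overlapped. The group held 3 photosystem or electron transport proteins, a pigment enzyme, a thylakoid membrane protein and a plastid ribosomal protein.

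AT1G51400 encodes a small protein of photosystem II. It measured 11.16, 10.96 and 11.00 in msh1 albino, against 12.40, 12.16 and 12.20 in wild type. The highest albino array lay well below the lowest wild-type array. The difference was -1.21 ± 0.11 (SE, n = 3 each, limma adjusted p = 0.00185), which is 2.31-fold lower in msh1 albino.

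AT1G74470 encodes geranylgeranyl reductase, which makes the phytyl chain used for chlorophyll and tocopherol. It measured 12.15, 11.95 and 12.12 in msh1 albino, against 12.76, 12.81 and 12.88 in wild type. No albino array reached the wild-type range. The difference was -0.74 ± 0.10 (SE, limma adjusted p = 0.00489), or 1.68-fold lower in msh1 albino.

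PSB27 encodes a lumenal protein used in the assembly and repair of photosystem II. It measured 11.92, 12.03 and 11.73 in msh1 albino, against 12.34, 12.48 and 12.40 in wild type. The arrays of the groups were again separate. The difference was -0.52 ± 0.11 (SE, limma adjusted p = 0.0226).

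The other 3 chloroplast members were not called. AT2G26500, for the PetM subunit of the cytochrome b6f complex, measured 12.64, 13.15 and 12.55 in msh1 albino and 13.33, 13.28 and 13.25 in wild type. Albino replicate 2 came close to the wild-type arrays, and the difference was -0.50 ± 0.16 (limma adjusted p = 0.0856). AT2G43030, for the plastid ribosomal protein L3, differed by -0.33 ± 0.11 (adjusted p = 0.0942). AT4G01150, for the thylakoid curvature protein CURT1A, differed by -0.29 ± 0.13 (adjusted p = 0.199).

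**Figure D4:**
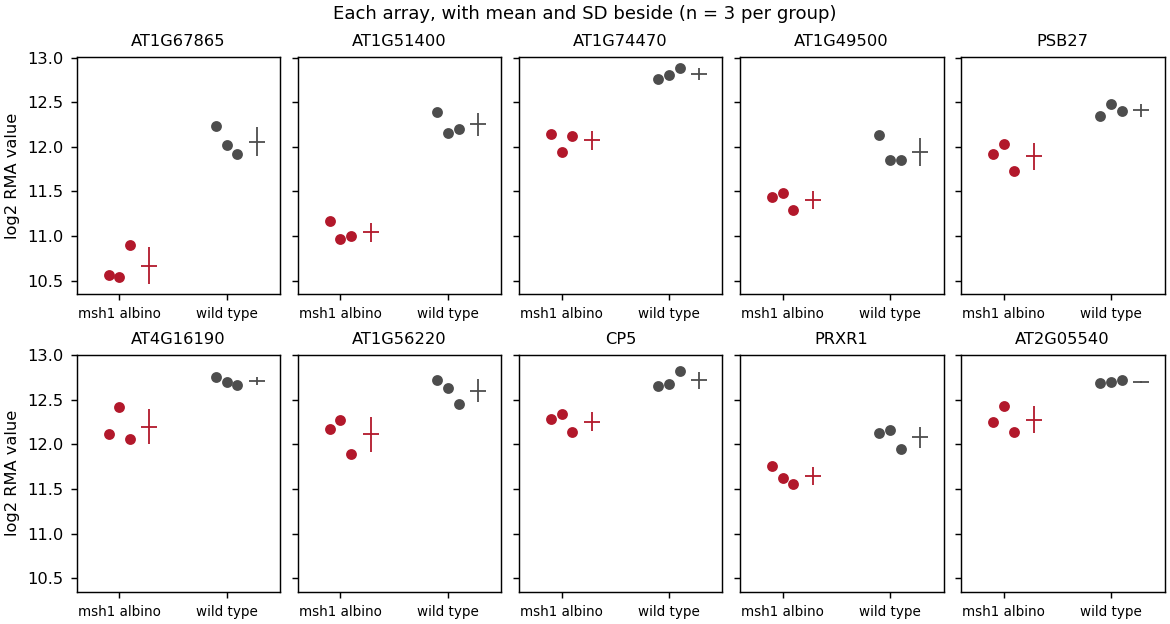
Log2 values in each array of the named members called lower, with msh1 albino before wild type. In each of these members every albino point lies below every wild-type point, by the widest margin in AT1G67865 and AT1G51400.

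None of the 18 members for cytosolic ribosomal proteins was called, beside 11.2% of all tested probe sets called in either direction. All 18 overlapped between the groups, with limma adjusted p between 0.314 and 0.989. Of all tested probe sets, 19.8% had every albino array below wild type and 10.1% had every albino array above. Whether the counts for the 18 differ from those shares was not tested. The median difference of the 18 members was -0.11, with a range of -0.24 to 0.03. AT5G20290, for protein S8 of the small subunit, measured 12.82, 13.05 and 12.68 in msh1 albino and 13.01, 12.98 and 12.94 in wild type. AT3G09200, for the stalk protein P0 of the large subunit, differed by 0.00 with a 95% interval of -0.23 to 0.23. AT4G27090, for protein L14, differed by -0.24 with an interval of -0.68 to 0.20, so a modest change in either direction lies within the error.

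The arrays themselves ordered these ribosomal transcripts. Albino replicate 3 was the lowest of all 6 arrays for all 18, and albino replicate 2 was the highest for 14. The same counts over all tested probe sets were not computed. Under other scales the direction turned: the median was 0.06 when arrays were aligned on the reference genes, 0.08 after cyclic loess and 0.13 after quantile normalization. Without albino replicate 3 it was 0.02, and without albino replicate 2 it was -0.25. No direction is therefore given for the group.

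Annotated ribosomal genes outside the members were also not called in the deposited values. Of 183 loci for cytosolic ribosomal proteins, written down after the values were seen, 113 had a single-gene probe set in the annotation. None of the 113 was called, beside 11.2% of all tested probe sets called in either direction. At an unadjusted p under 0.05 there were 5, beside 5835 of all 22746 tested. The 95 that were not members had a median difference of -0.11, equal to that of the members.

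Within each array, the mean of the chloroplast group minus that of the ribosomal group does not depend on a constant shift of the whole array. A shift that changes with signal level would still enter it, and it was computed on the deposited values only. This contrast was -0.13, -0.34 and -0.05 in msh1 albino, against 0.30, 0.34 and 0.30 in wild type. The groups of arrays did not overlap, and the means were -0.17 ± 0.15 in msh1 albino and 0.31 ± 0.02 in wild type (SD, n = 3 each). The groups of genes were set after the values were seen, with the chloroplast enzyme AT3G58610 outside the chloroplast group. The separation is therefore no result independent of that choice. It is a description and has no test.

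Of 6 members for metabolic enzymes 0 were called, beside 11.2% of all tested probe sets called in either direction. Whether that differs from the share was not tested. The median difference of the 6 members was -0.09. GAPC2, the cytosolic glyceraldehyde-3-phosphate dehydrogenase of glycolysis, measured 12.66, 12.96 and 12.45 in msh1 albino and 12.97, 12.83 and 12.73 in wild type. The triosephosphate isomerase TPI differed by -0.04, formate dehydrogenase FDH by -0.11 and the NADP-linked isocitrate dehydrogenase cICDH by -0.17. SAMDC, which makes the donor for polyamine synthesis, differed by 0.10 ± 0.20. AT3G58610 encodes ketol-acid reductoisomerase of branched-chain amino acid synthesis, an enzyme located in the chloroplast.

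Among 4 members for secreted proteins, 2 fell, beside 7.44% of all tested probe sets, and the median difference was -0.42. None of the 4 was called after alignment on the 75th percentile or the reference genes, after cyclic loess or quantile normalization, or with the intensity trend. The glycine-rich protein gene AT2G05540 measured 12.25, 12.43 and 12.13 in msh1 albino, against 12.69, 12.70 and 12.72 in wild type. Its wild-type arrays lay close together, and the difference was -0.43 ± 0.10 (SE, limma adjusted p = 0.0372). PRXR1, a class III peroxidase, measured 11.76, 11.62 and 11.55 in msh1 albino, against 12.13, 12.17 and 11.94 in wild type. The groups did not overlap, and the difference was -0.44 ± 0.10 (limma adjusted p = 0.0368). The lipid-transfer family gene AT2G45180 and the Ole e 1 family gene AT1G78040 differed by -0.40 ± 0.18 and -0.30 ± 0.21, and their groups overlapped.

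Of 3 members for protein turnover, 1 fell, beside 7.44% of all tested probe sets called lower. AT4G16190, a papain-type cysteine protease, measured 12.11, 12.42 and 12.07 in msh1 albino, against 12.75, 12.70 and 12.67 in wild type. No albino array reached the wild-type range, and the difference was -0.51 ± 0.12 (SE, limma adjusted p = 0.0300). The aspartic protease APA1 differed by -0.28 ± 0.10 (adjusted p = 0.133). UBC28, a ubiquitin-conjugating enzyme, differed by 0.01.

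Of 4 members tied to stress, dormancy or the clock, 1 fell, beside 7.44% of all tested probe sets called lower. The dormancy and auxin associated gene AT1G56220 measured 12.17, 12.27 and 11.89 in msh1 albino, against 12.72, 12.64 and 12.46 in wild type. Its difference was -0.49 ± 0.13 (SE, limma adjusted p = 0.048), close to the threshold. CCL, a CCR-like gene, differed by -0.44 ± 0.13 (adjusted p = 0.0773). DI19, a zinc finger protein of drought responses, measured 12.42, 12.62 and 12.35 in msh1 albino and 12.34, 12.32 and 12.07 in wild type. All its albino arrays lay above wild type, but by little, and the difference of 0.22 ± 0.12 was not called (adjusted p = 0.309). AT3G15450 differed by -0.09.

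The remaining 10 named members were placed in none of these role groups. In msh1 albino 3 of them fell, beside 7.44% of all tested probe sets called lower. AT5G19510, a subunit of the translation elongation factor 1B, differed by 0.08 ± 0.13, with overlapping groups. AT1G67865 had the largest difference of any member with a gene name. It measured 10.56, 10.55 and 10.90 in msh1 albino, against 12.24, 12.02 and 11.92 in wild type. The gap between the groups was wide, and the difference was -1.39 ± 0.14 (SE, limma adjusted p = 0.00208), or 2.62-fold lower in msh1 albino. AT1G49500 differed by -0.54 ± 0.11 (adjusted p = 0.0228) and CP5 by -0.46 ± 0.10 (adjusted p = 0.0259). AT1G25275 measured 12.42, 13.18 and 12.43 in msh1 albino and 12.42, 12.18 and 12.15 in wild type, so that albino replicate 2 alone stood high. Its difference of 0.43 ± 0.21 was not called in the deposited values (adjusted p = 0.254), but it was called higher after cyclic loess and after quantile normalization.

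**Figure D5:**
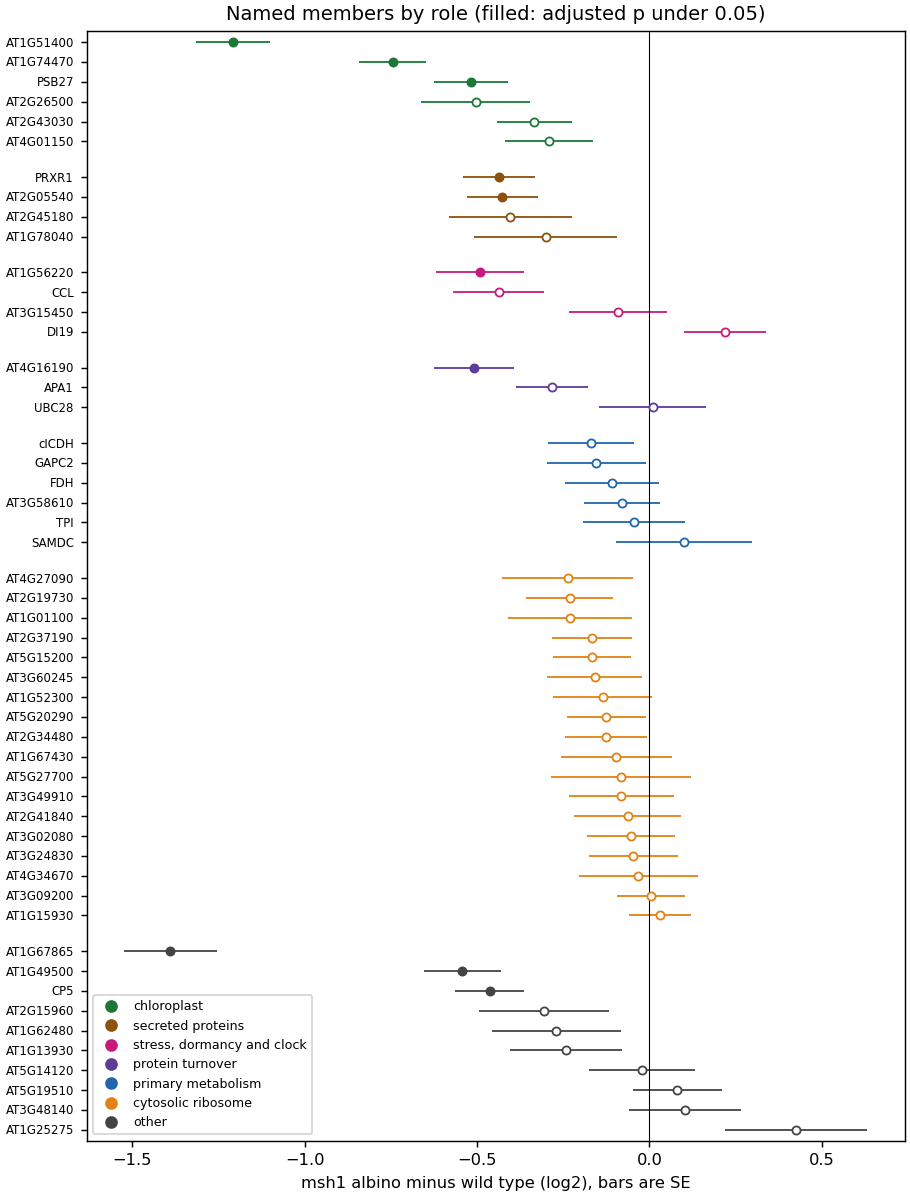
Log2 difference, msh1 albino minus wild type, of the members with a single gene, arranged by role group. The 6 chloroplast members lie between -1.21 and -0.29, and the 18 cytosolic ribosomal members lie between -0.24 and 0.03.

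The calls of named members differed in how well they held. AT1G67865 and AT1G51400 were called under all 13 alternative settings, and AT1G74470 under 11, its call being lost after cyclic loess and after quantile normalization. The other 7 were called under 1 to 5 settings. None of these 7 was called when any of albino replicates 1 and 3 and wild-type replicates 2 and 3 was left out. None was called after alignment on the reference genes, after cyclic loess or after quantile normalization either. Leaving out replicate 1 of wild type ended the call for 5 of them, and leaving out albino replicate 2 ended it for PRXR1. Some named members not called in the deposited values gained a call. AT1G25275 was called higher after cyclic loess and after quantile normalization, and DI19 and AT5G19510 after quantile normalization. AT2G26500, AT2G45180, AT1G78040 and AT2G15960 were called lower when albino replicate 2 was left out.

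Of the 140 unnamed members, 48 fell (34.3%) and 1 rose, with a median difference of -0.31. Of the 51 members with a single gene, 10 fell (19.6%), with a median difference of -0.17, and 7.44% of all tested probe sets were called lower. The lowest difference was at rank 85, where the member measured 11.51, 10.48 and 10.80 in msh1 albino and 12.61, 12.34 and 12.38 in wild type, a difference of -1.52 ± 0.24 (limma adjusted p = 0.00939). The member at rank 91 measured 11.35, 11.16 and 11.08 in msh1 albino and 12.50, 12.39 and 12.38 in wild type, a difference of -1.22 ± 0.10 (adjusted p = 0.00157). Both stood apart in every array and were called under all 13 alternatives.

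The single member that rose stood at rank 110 and was unnamed. It measured 12.75, 13.21 and 12.72 in msh1 albino, against 12.23, 12.42 and 12.34 in wild type. All albino arrays lay above wild type, and the difference was 0.56 ± 0.15 (limma adjusted p = 0.0477), a call kept under 5 of 13 alternatives. Of all 61 called members, 22 were called under every alternative, and 20 of those were unnamed. Among the 9 members with several genes, 2 fell, beside 7.44% of all tested probe sets called lower.

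Of 24 gene lists for functions common in shoots, 4 held a named member. Measured genes of a list are those with a single-gene probe set in the annotation, so unnamed members could not be matched. The nuclear photosynthesis list had 17 measured genes, of which 7 fell and 0 rose, beside 7.44% lower and 3.75% higher of all tested probe sets, with a median difference of -0.49. Its only member was AT4G01150. The antioxidant list, with PRXR1, had 4 lower and 3 higher among 21 measured genes, beside the same 7.44% and 3.75%, and its median was 0.05. The glycolysis and carbon list held GAPC2, FDH and TPI, and 1 of its 5 measured genes rose, beside 3.75% of all tested probe sets. The ubiquitin and proteasome list, with UBC28, had 0 calls among 18 measured genes, beside 11.2% of all tested probe sets called in either direction. At an unadjusted p under 0.05 it had 3, beside 5835 of all 22746 tested.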

How the data were processed

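Aerial parts of 3 msh1 albino and 3 wild-type plants were hybridised to 6 Affymetrix arrays, and samples were grouped by their labels, which call them biological replicates. The authors deposited log2 values made with RMA in the affy package, per the submitters' processing notes. For versions, settings and build, the entry is: not given in the sources used here. RMA subtracts background, normalizes arrays and summarises probes. Array values are compressed near background and saturation, and whether that affects these bright members was not tested. In the deposited values the 99th percentile still ran from 11.45 to 11.92 between arrays, and the reason was not tested. Arrays have no read depth, so precision is limited by how many were run.

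Values were used as deposited. After 64 controls were left out, 22746 probe sets were fitted with lmFit and eBayes (limma 3.58.1, R 4.3.3). Differences are msh1 albino minus wild type, tests were two-sided, and p-values were adjusted by Benjamini-Hochberg over all tested probe sets, with 0.05 as the threshold. The array annotation, updated through the TAIR10.1 table for names only, gave a single gene for 13513 probe sets, several for 503 and none for 8730. The fit was tested on simulated data with independent noise for each probe set. The simulation held no shift shared across an array, so it does not cover one. The members, lists and roles were chosen with earlier results of these data known. The naming rule took, among single-gene members, the 20 highest in wild type, up to 10 called in each direction, the leading members of each list and those at the end of the ranking. It gave 29 of 51 named members, and the other 22 were named after their values were seen. Same-numbered samples did not deviate together (correlations of 0.01, -0.34 and -0.02), so replicate numbers were not used as pairs. Other alignments, normalizations, filters, variance priors, thresholds, member choices and left-out arrays were tried.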

Additional observations from a re-analysis of the deposited data

How the results depend on the processing

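The median difference of the members stayed negative under every alternative run. It was -0.10 with arrays aligned on the reference genes, -0.070 after cyclic loess and -0.017 after quantile normalization. The median of all tested probe sets was 0.13, 0.003 and -0.012 there, so after quantile normalization the medians nearly met. These settings gave 2, 6 and 12 higher calls. Lower calls were 36 after cyclic loess and 26 after quantile normalization, against 60 in the deposited values. At an adjusted p under 0.01, 30 members were lower and 0 higher. Ranking by the albino mean gave 32 lower and 3 higher, ranking by all 6 arrays gave 2 higher, the first 100 ranks gave 36 lower and 0 higher, and the first 400 gave 97 lower and 2 higher. These rankings use the deposited fit, in which 7.44% of all tested probe sets were called lower and 3.75% higher. Ranking on wild-type array 1, 2 or 3 and comparing with the others gave 44, 34 and 37 lower and 0 higher. An intensity trend with a robust prior left 0 higher. With the replicate number as a block, 41 members were lower and 0 higher, and of the 10 named members that fell 3 were called; the numbers did not pair the samples. Leaving out 1 array at a time gave 34 to 72 lower, 0 higher and medians of -0.40 to -0.15. For the 0.01 threshold, the intensity trend, the block and the left-out arrays, the share of all tested probe sets was not computed. The summed share differed by -2.25 points as deposited, by -1.56 after cyclic loess, by -0.46 after quantile normalization and by -1.001 for members ranked by the albino mean, and by -2.74 to -1.81 with 1 array left out; these alternatives for the share were chosen after seeing the data. For single named members, 536 alternative values kept their sign and their side of the threshold, though not always their size, 78 lost the call, 8 gained it, 92 changed sign without a call and 0 changed sign with one. The cause of these changes was not tested. With 3 arrays a group, small differences between abundant transcripts could not be told from the spread of the albino arrays.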
